A study of Homo sapiens with 6 samples.

Results

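Amino acid transporters are membrane proteins of the solute carrier (SLC) families that move amino acids across the plasma membrane and the lysosomal membrane. The genes described here are those of the deposited expression table whose symbol belongs to SLC1A, SLC3A, SLC6A, SLC7A, SLC36A, SLC38A or SLC43A, followed by a number. This rule found 46 of the 33392 genes in the table, and 26 of the 46 had a mean level of at least 0.5 FPKM (fragments scaled to transcript length and to the mapped fragments of the library) over the 6 libraries and were tested. FPKM is a level per transcript length, so levels can be set side by side between genes.

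The data come from RNA sequencing of HK-2 cells, an immortalised epithelial line derived from human kidney proximal tubule. All 6 libraries are labelled with TGF-β1 stimulation and a time of 48 h. The groups differ in the siRNA: 3 libraries had the non-targeting Scramble control, and 3 had siRNA-DYRK2 (here siDYRK2) against the protein kinase DYRK2. No library without TGF-β1 was analysed here, so the values say nothing about the response to TGF-β1 itself. One cell line was used. Whether replicates came from separate cultures is not stated in the labels, and every p-value therefore refers to the spread among these libraries only, which may be technical.

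Several of these carriers work as pairs or in relays. The SLC7 light chains, such as LAT1 (SLC7A5) and xCT (SLC7A11), reach the cell surface bound to the heavy chain 4F2hc (SLC3A2, also called CD98). LAT1 takes up leucine and other large neutral amino acids by exchange, commonly for glutamine that was brought in by ASCT2 (SLC1A5) or by the sodium-coupled carriers of the SLC38 family. In the kidney, proximal tubule cells recover filtered amino acids through apical carriers such as SLC6A19 and the SLC3A1-SLC7A9 pair, and release them through basolateral ones such as SLC7A7 and SLC7A8 bound to SLC3A2. Transcription of many carrier genes is known to rise on amino acid shortage through the factor ATF4.

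The labelled identity was checked first. The libraries correlated across genes (log2 scale; genes are not independent replicates) at 0.989 to 0.991 within groups and 0.974 to 0.976 between groups. DYRK2 stood at 5.84, 6.06 and 5.96 FPKM in the scramble libraries and at 1.45, 1.54 and 1.49 FPKM in the siDYRK2 libraries (log2 fold change −1.69, SE 0.051, limma adjusted p = 2.0e-06; exact two-sided permutation p = 0.1, the smallest that 3 against 3 libraries allow). Of the proximal tubule markers, HNF4A, SLC34A1 and PAX2 did not pass 0.02 FPKM in any library, CUBN, AQP1, PAX8 and ANPEP did not pass 0.35 FPKM, and LRP2 was not analysed here. Sequencing depth is unknown, because FPKM does not carry it. Of 6 lung epithelial markers 4 reached a mean of 0.5 FPKM, with NKX2-1 the highest at 23.1 to 27.3 FPKM. SFTA3, SFTPB and NAPSA had means of 7.87, 3.84 and 1.61 FPKM. The surfactant gene SFTPC did not pass 0.06 FPKM in any library, and SFTPA1 had no values. The summed level of the lung list was 38.5 to 42.9 FPKM with scramble and 36.2 to 37.0 FPKM with siDYRK2. All 5 epithelial markers were present, with a summed level of 565 to 569 FPKM with scramble and 666 to 710 FPKM with siDYRK2. KRT7 carried that difference, with means of 382 and 542 FPKM, while KRT18 fell (log2 fold change −0.50, limma adjusted p = 8.1e-05), CDH1 fell (−1.06, adjusted p = 8.4e-05), and EPCAM (−0.19) and KRT8 (0.03) were not called. The 4 fibroblast markers summed to 0.37 to 0.40 and 0.60 to 0.75 FPKM, and the endothelial markers to 0.07 FPKM or less. The part of these shifts in the transporter results was not tested. In bulk RNA, fewer cells of a kind and less RNA per cell cannot be told apart.

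The carriers that recover amino acids in the proximal tubule were mostly at very low levels in both groups. Of 12 such apical and basolateral carriers 4 had a mean of at least 0.5 FPKM, namely SLC3A2, SLC1A1, SLC43A2 and SLC38A3. The cystinuria pair SLC3A1 and SLC7A9, the basolateral light chains SLC7A7 and SLC7A8, and the imino acid carrier SLC6A20 had means between 0.0117 and 0.127 FPKM. SLC6A18, SLC6A19 and SLC36A2 were not analysed here. Among the other members under 0.5 FPKM, the orphan carrier SLC6A16 ranged from 0.33 to 0.59 FPKM over the 6 libraries. SLC1A3, the glutamate carrier EAAT1, was at 0.25 to 0.31 FPKM with scramble and 0.35 to 0.44 FPKM with siDYRK2, without overlap. SLC38A5 ranged from 0.11 to 0.27 FPKM and SLC6A14, a carrier of neutral and cationic amino acids, from 0.14 to 0.19 FPKM. SLC6A12, SLC7A4, SLC6A13, SLC6A4, SLC6A11, SLC7A10, SLC6A7, SLC36A3, SLC38A4 and SLC1A7, which include carriers of GABA, serotonin, proline and D-serine, did not exceed 0.11 FPKM in any library. SLC1A2, the main glutamate carrier of astrocytes, was listed at 0 in all 6 libraries. None of these 20 genes was tested.

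A few broadly expressed carriers made up most of the level. SLC7A5 had the highest mean of the 46 genes, 185 FPKM over the 6 libraries, followed by SLC1A5 at 112, SLC3A2 at 87.7, SLC38A2 at 76.3, SLC38A1 at 47.2 and SLC7A1 at 35.1 FPKM. In the scramble libraries SLC3A2 and SLC38A2 overlapped in level, whereas SLC7A5 was above SLC1A5 in every library. The plot of levels by library shows this order for the tested members.

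**Figure D1:**
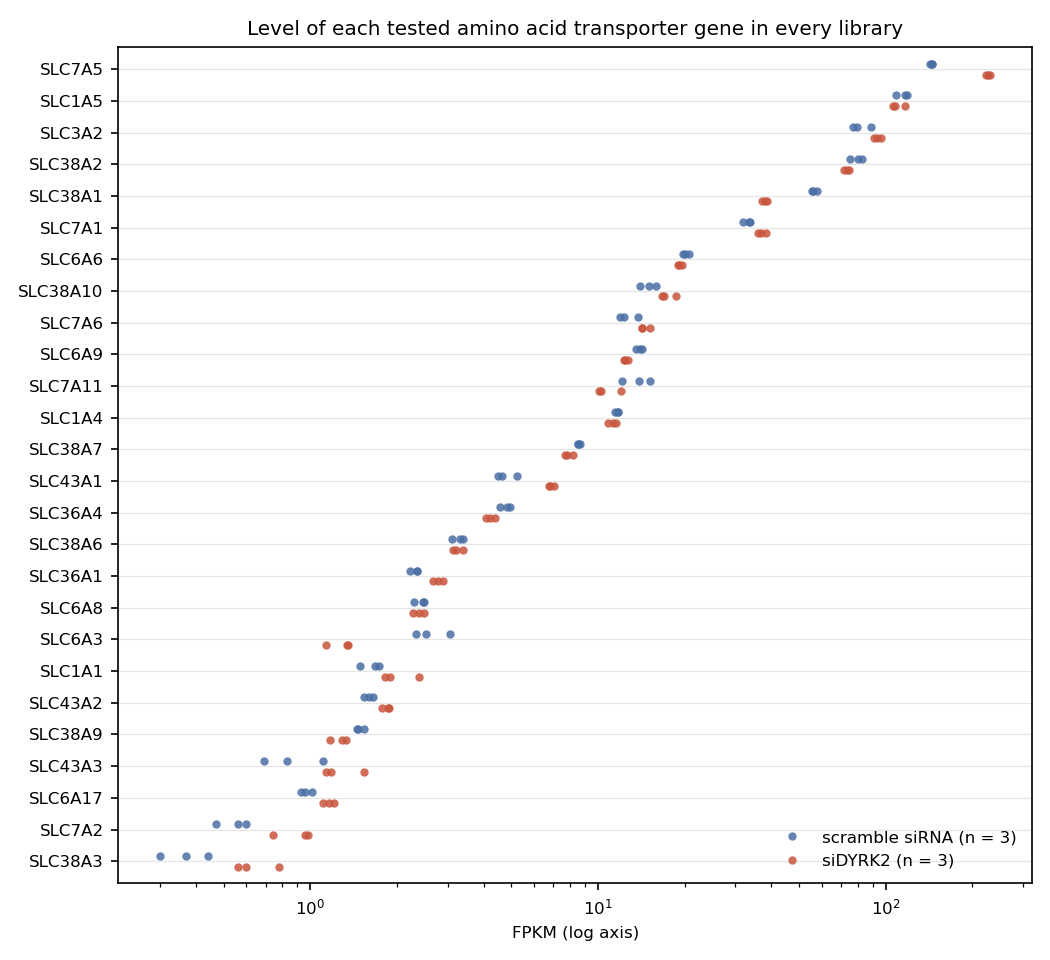
FPKM (log axis) of the 26 tested amino acid transporter genes, sorted by mean level, with 1 point per library; blue points are the 3 scramble libraries and red points the 3 siDYRK2 libraries. SLC7A5 lies near 144 FPKM with scramble and 227 FPKM with siDYRK2, with no overlap, while SLC38A1 and SLC6A3 lie lower with siDYRK2 in every library.

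Sequences around annotated starts were searched for the amino acid response element, the word through which ATF4 and its partners are known to act, in the form TGATGNAA on both strands. RefSeq promoter sequences (GRCh38.p14, 250 bases before to 50 after each start) matched 36 of the 46 members. Among the tested members, SLC7A11, SLC6A3, SLC6A6, SLC7A2, SLC38A3 and SLC43A3 had no such sequence and were not searched. The word was present at 6 of 57 member starts (10.5%), against 3.62% of all 35116 starts and 1.92% of the starts of genes tested here. Per gene, 6 of 36 members (16.7%) and 4.46% of all genes held it. The 6 sites are shown because 4 of them belong to members among the 8 with the highest levels. Each is read 5′ to 3′ on the gene's strand, with the word in capitals and up to 11 bases on each side.
SLC1A5: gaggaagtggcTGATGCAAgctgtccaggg
SLC1A4: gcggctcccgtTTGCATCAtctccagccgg
SLC38A1: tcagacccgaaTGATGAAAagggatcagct
SLC7A1: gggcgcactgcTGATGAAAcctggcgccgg
SLC3A2: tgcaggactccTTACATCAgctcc
SLC1A3: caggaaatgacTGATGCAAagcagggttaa
The SLC1A5 window is chr19:46784893-46784922 on the minus strand, with the word starting at −97 from the start site. The SLC1A4 window is chr2:64989381-64989410 (plus strand, from −7), and the SLC38A1 window is chr12:46266502-46266531 (minus strand, from −4). Past the start site begin the words of SLC7A1, window chr13:29595663-29595692 (minus strand, from 8), and of SLC3A2, window chr11:62881725-62881748 (plus strand, from 38), and at −220 begins that of SLC1A3, window chr5:36596357-36596386 (plus strand). The word was found at 1 of 3 annotated starts of SLC1A5, SLC3A2 and SLC1A3, at 1 of 2 of SLC1A4 and SLC38A1, and at the 1 start of SLC7A1. SLC7A5 and SLC38A2 did not hold it in this window, which says nothing about sites elsewhere. A match is a string of letters and not a measured binding site.

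Silencing of DYRK2 went with changes in both directions among the carriers. By limma at an adjusted p under 0.05, adjusted over all 15121 tested genes, 9 of the 26 tested members rose and 5 fell, while 12 did not pass the test. Over all tested genes 20.4% rose and 17.9% fell by the same rule, so the share of members that fell (19.2%) was close to the background and the share that rose was 34.6%. The members' median log2 fold change was 0.07, against 0.01 over all tested genes, and their median absolute log2 fold change was 0.18 against 0.17. The 3 libraries of a group did not overlap those of the other for 22 of the 26 members, against 51.7% of all tested genes. SLC38A3 passed the level filter through its siDYRK2 libraries, so its place among the tested genes was not independent of its difference.

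These counts depended on single libraries. The 9 members that rose became 3 without scramble replicate 2, 4 without siDYRK2 replicate 1, 4 without siDYRK2 replicate 2 and 5 without siDYRK2 replicate 3. Over all tested genes the 3079 that rose became 2367 of 15099 without scramble replicate 2. Without siDYRK2 replicates 1, 2 and 3 they became 2389 of 15133, 2332 of 15138 and 2728 of 15125. The share of members that rose was thus near or below that of all genes in these fits. Without scramble replicate 1, 6 members rose, beside 2566 of 15109 tested genes. Without scramble replicate 3, 7 members rose, beside 2697 of 15113. There the share of members stayed above that of all genes. The 5 members that fell became 2 without scramble replicate 2, and 3 without siDYRK2 replicate 1 or without siDYRK2 replicate 2. Among all tested genes the 2714 that fell became 2099, 2321 and 2294 in these fits. With the replicate number as a block, 3 members fell, as did 2321 of all 15121 tested genes. The calls of 5 members held in all 14 alternative analyses: SLC7A5, SLC7A1 and SLC43A1 rose, and SLC38A1 and SLC6A3 fell. No called member changed direction in any of them.

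**Figure D2:**
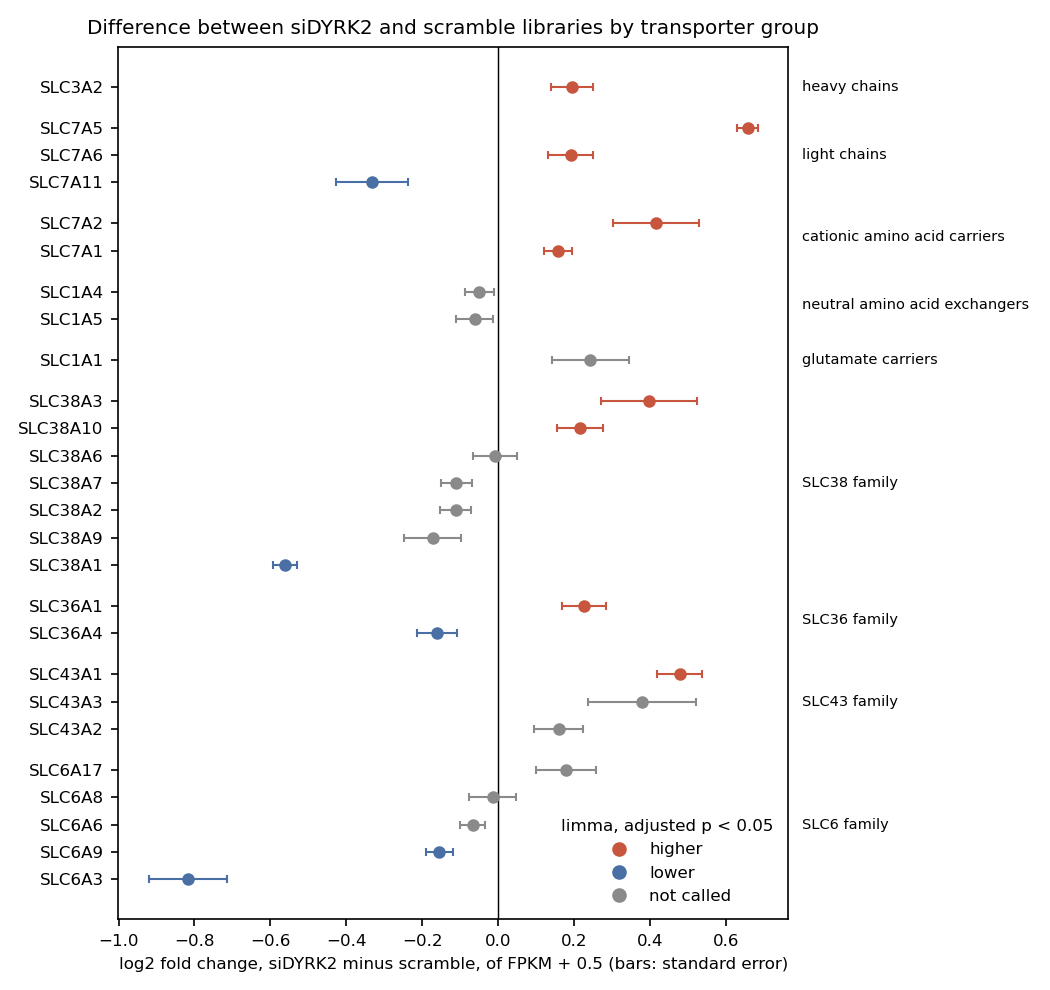
Log2 fold change (siDYRK2 minus scramble, of FPKM + 0.5) with its standard error for the 26 tested members, grouped by family or role; red and blue mark limma calls (adjusted p under 0.05) and grey marks genes not called. SLC7A5 has the highest value (0.66) and SLC6A3 the lowest (−0.82), and 3 groups hold members called in opposite directions (light chains, SLC38 and SLC36).

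The heavy chain was slightly higher with siDYRK2, and its best-expressed light chain, SLC7A5, rose 1.58-fold. SLC3A2 (ENSG00000168003; GRCh38 chromosome 11, 62856102 to 62888875, plus strand) stood at 77.0, 79.4 and 89.2 FPKM in the scramble libraries and at 93.5, 91.0 and 96.1 FPKM in the siDYRK2 libraries. All 3 siDYRK2 values were above the scramble values, but scramble replicate 3 came close to them. The log2 fold change was 0.19 (SE 0.056, limma adjusted p = 0.031). This call was lost without scramble replicate 1 (log2 fold change 0.15), scramble replicate 2 (0.17), siDYRK2 replicate 1 (0.19), siDYRK2 replicate 2 (0.21) or siDYRK2 replicate 3 (0.17), with adjusted p from 0.0535 to 0.0964. It was also lost in the fit without a trend (adjusted p = 0.063) and when low values were not filtered (0.084).

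SLC7A5 (ENSG00000103257; GRCh38 chromosome 16, 87830023 to 87869488, minus strand), the exchanger LAT1, stood at 142, 145 and 145 FPKM with scramble and at 227, 223 and 231 FPKM with siDYRK2. The groups were far apart relative to their spread, with means of 144 ± 1.67 and 227 ± 4.14 FPKM (SD, n = 3). The ratio of means was 1.58 and the log2 fold change 0.66 (SE 0.027, limma adjusted p = 7.8e-06), with a range of 0.64 to 0.67 over the alternatives. SLC7A5P2, a pseudogene copy of SLC7A5 whose reads may be shared with it, had a mean of 0.57 FPKM.

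SLC7A6, the y+LAT light chain that exchanges cationic for neutral amino acids, had means of 12.7 ± 0.976 and 14.5 ± 0.531 FPKM (SD, n = 3; limma log2 fold change 0.19, adjusted p = 0.038). That call was lost without scramble replicate 1 (0.17), scramble replicate 2 (0.15), siDYRK2 replicate 1 (0.20), siDYRK2 replicate 2 (0.21) or siDYRK2 replicate 3 (0.16), with adjusted p up to 0.119. It was also lost in the limma fit without a trend (adjusted p = 0.0646) and when low values were not filtered (0.0882). Annotated exons of SLC7A6 share 3371 bases with SLC7A6OS on the opposite strand, which had a mean of 6.91 FPKM, and without stated strand use their reads may be mixed.

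SLC7A11 (ENSG00000151012; GRCh38 chromosome 4, 138164097 to 138242349, minus strand), the light chain of the cystine-glutamate exchanger, was the light chain that fell. Its levels were 15.21, 13.87 and 12.13 FPKM with scramble and 10.25, 10.08 and 12.04 FPKM with siDYRK2. Scramble replicate 3 and siDYRK2 replicate 3 were almost equal, so the groups barely separated. The log2 fold change was −0.33 (SE 0.095, limma adjusted p = 0.029). The call was lost without scramble replicate 1 (−0.26), scramble replicate 2 (−0.32), siDYRK2 replicate 1 (−0.30) or siDYRK2 replicate 2 (−0.29), where adjusted p was 0.0778 to 0.09. It was also lost with the replicate block (adjusted p = 0.073) and when low values were not filtered (0.079).

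Relative to the heavy chain SLC3A2, SLC7A5 was higher and SLC7A11 lower in every siDYRK2 library. The ratio of SLC7A5 to SLC3A2 FPKM was 1.84, 1.82 and 1.63 in the scramble libraries and 2.43, 2.45 and 2.41 in the siDYRK2 libraries, so the groups did not overlap (exact two-sided permutation p = 0.1, the smallest possible here). The summed level of the 7 light chain members went from 170 ± 0.671 to 253 ± 5.59 FPKM (SD, n = 3). SLC7A5, with means of 144 and 227 FPKM, carried this rise. The ratio of SLC7A11 to SLC3A2 was 0.136 to 0.197 with scramble and 0.110 to 0.125 with siDYRK2. SLC7A5 alone made up 22.4% to 23.0% of the summed FPKM of all 46 members with scramble and 32.0% to 32.6% with siDYRK2. That sum was 631 to 638 FPKM with scramble and 692 to 722 FPKM with siDYRK2, a rise that SLC7A5 also carried.

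**Figure D3:**
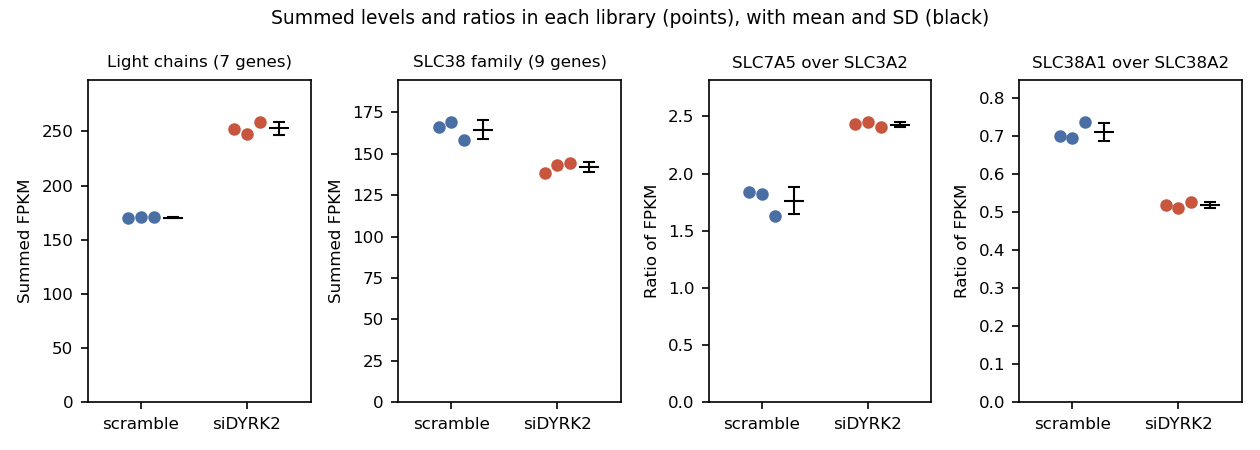
Summed FPKM of the light chains and of the SLC38 family, and the ratios of SLC7A5 to SLC3A2 and of SLC38A1 to SLC38A2 (axes start at 0), with 1 point per library and the mean ± SD of 3 libraries in black. In all 4 panels the groups do not overlap. The light chain sum, which is mostly SLC7A5, and the SLC7A5 ratio are higher with siDYRK2, and the SLC38 sum and the SLC38A1 ratio are lower.

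Both tested cationic amino acid carriers, SLC7A1 and SLC7A2, were called higher, as were 20.4% of all tested genes. Their relative SLC7A4 was under the level filter. SLC7A1 (ENSG00000139514; GRCh38 chromosome 13, 29509410 to 29595688, minus strand), the arginine and lysine carrier CAT1, stood at 31.97, 33.55 and 33.84 FPKM with scramble and at 35.97, 36.84 and 38.22 FPKM with siDYRK2. The increase was small and every siDYRK2 library was above every scramble library (log2 fold change 0.16, SE 0.037, limma adjusted p = 0.013). SLC7A2, the related carrier CAT2, was near the filter at 0.543 ± 0.0666 and 0.893 ± 0.133 FPKM (SD, n = 3; limma log2 fold change 0.41, adjusted p = 0.025). Its call was lost without scramble replicate 1 (0.43), scramble replicate 2 (0.36), siDYRK2 replicate 1 (0.37) or siDYRK2 replicate 2 (0.38), and with the replicate block (adjusted p = 0.065). It was also lost when low values were not filtered.

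The 3 tested SLC1A carriers did not pass the test. SLC1A5 (ENSG00000105281; GRCh38 chromosome 19, 46774883 to 46788594, minus strand), the glutamine carrier ASCT2, stood at 119, 117 and 109 FPKM with scramble and at 107, 106 and 116 FPKM with siDYRK2. These groups overlapped (log2 fold change −0.06, SE 0.049, limma adjusted p = 0.35). SLC1A4, the alanine, serine and cysteine carrier ASCT1, had means of 11.7 and 11.2 FPKM (log2 fold change −0.05, limma adjusted p = 0.34). SLC1A1, the glutamate carrier EAAT3, had means of 1.64 ± 0.131 and 2.04 ± 0.309 FPKM (SD, n = 3; limma log2 fold change 0.24, adjusted p = 0.10).

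Within the SLC38 family, SLC38A1 was lower and its close relative SLC38A2 was not called. SLC38A1 (ENSG00000111371; GRCh38 chromosome 12, 46183063 to 46270017, minus strand), the sodium-coupled carrier SNAT1 of glutamine and other small neutral amino acids, stood at 56.0, 57.6 and 55.3 FPKM with scramble and at 37.2, 38.1 and 38.7 FPKM with siDYRK2. Its groups were separated by far more than their spread, with a 1.48-fold lower mean (log2 fold change −0.56, SE 0.031, limma adjusted p = 2.4e-05). SLC38A2 (ENSG00000134294; GRCh38 chromosome 12, 46358189 to 46372867, minus strand), the SNAT2 gene, whose induction on amino acid shortage is well known, stood at 79.98, 82.92 and 75.02 FPKM with scramble and at 71.75, 74.59 and 73.42 FPKM with siDYRK2. Its groups lay side by side without overlap (log2 fold change −0.11, limma adjusted p = 0.068). Without scramble replicate 3 it was called lower (−0.15, adjusted p = 0.0157). The ratio of SLC38A1 to SLC38A2 was 0.695 to 0.737 with scramble and 0.510 to 0.527 with siDYRK2 (exact two-sided permutation p = 0.1), and the sum of the 9 SLC38 members was 158 to 169 and 139 to 144 FPKM.

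Other SLC38 members showed small differences. SLC38A10 stood at 15.9, 15.0 and 14.0 FPKM with scramble and at 16.6, 16.9 and 18.7 FPKM with siDYRK2 (log2 fold change 0.21, limma adjusted p = 0.028). Its call was lost without scramble replicate 2 (0.22), scramble replicate 3 (0.17), siDYRK2 replicate 2 (0.23) or siDYRK2 replicate 3 (0.17), where adjusted p was 0.0535 to 0.0732, and with the replicate block (adjusted p = 0.077). The limma fit without a trend (adjusted p = 0.0517) and the one with no filter on low values (0.0706) lost it too. SLC38A3, the glutamine and histidine carrier SNAT3, had means of 0.370 ± 0.0700 and 0.647 ± 0.117 FPKM (SD, n = 3; limma log2 fold change 0.40, adjusted p = 0.043). That call was lost without scramble replicate 1 (0.45), scramble replicate 2 (0.34) or scramble replicate 3 (0.40), and with the replicate block (adjusted p = 0.097). It was also lost when low values were not filtered. When any siDYRK2 library was left out, the mean of SLC38A3 was under the level filter and it was not tested. The call therefore held in no fit that leaves out a library. SLC38A7, a lysosomal carrier of glutamine and asparagine, had means of 8.55 and 7.89 FPKM (log2 fold change −0.11, limma adjusted p = 0.071) and was called lower without siDYRK2 replicate 3 (−0.14, adjusted p = 0.0427). SLC38A9, the lysosomal arginine sensor that signals to mTORC1, had means of 1.49 and 1.26 FPKM (log2 fold change −0.17, limma adjusted p = 0.11). SLC38A6 had means of 3.28 and 3.25 FPKM (log2 fold change −0.01), and its exons share 245 bases with TRMT5 on the opposite strand.

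The proton-coupled SLC36 carriers were called in opposite directions, and the sum of the family overlapped between groups. SLC36A1, the lysosomal carrier PAT1, had means of 2.31 ± 0.0751 and 2.78 ± 0.111 FPKM (SD, n = 3; limma log2 fold change 0.23, adjusted p = 0.020). Without scramble replicate 2 (0.20, adjusted p = 0.0717) or siDYRK2 replicate 1 (0.20, adjusted p = 0.0703) the call was lost. SLC36A4, its relative PAT4, had means of 4.79 ± 0.199 and 4.23 ± 0.165 FPKM (SD, n = 3; limma log2 fold change −0.16, adjusted p = 0.048). Of the 6 fits that leave out 1 library, 1 (without scramble replicate 1) kept the call, and in the others adjusted p was 0.127 and 0.126 without scramble replicates 2 and 3, and 0.109, 0.0595 and 0.117 without siDYRK2 replicates 1, 2 and 3. The log2 fold changes there were −0.15, −0.14, −0.16, −0.19 and −0.14. The call was also lost with the replicate block (adjusted p = 0.0969), after rescaling without mitochondrial transcripts (0.0548) and with no filter on low values (0.0857). The summed level of the 3 SLC36 members was 6.92 to 7.31 FPKM with scramble and 6.84 to 7.12 FPKM with siDYRK2.

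All 3 SLC43 members had higher siDYRK2 values in every library, and 1 passed the test. The groups did not overlap, in either direction, for 51.7% of all tested genes, and 20.4% were called higher. For SLC43A3 the highest scramble value (1.11 FPKM) and the lowest siDYRK2 value (1.13 FPKM) nearly met. SLC43A1, the facilitated carrier LAT3 of branched-chain and other large neutral amino acids, rose from 4.80 ± 0.382 to 6.86 ± 0.146 FPKM (SD, n = 3), a ratio of 1.43 (log2 fold change 0.48, SE 0.060, limma adjusted p = 9.0e-04). SLC43A2, the related LAT4, had means of 1.597 and 1.84 FPKM (log2 fold change 0.16, limma adjusted p = 0.094). SLC43A3, which carries purine nucleobases rather than amino acids, had means of 0.877 ± 0.214 and 1.28 ± 0.224 FPKM (SD, n = 3; limma log2 fold change 0.38, adjusted p = 0.074). It was called higher without scramble replicate 1 (0.50, adjusted p = 0.0337), and its annotated exons share 1349 bases with AP000781.2 on the same strand.

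In the SLC6 family, which also holds carriers of neurotransmitters and osmolytes, 2 of 5 tested members fell and none rose. Of all tested genes 17.9% fell and 20.4% rose. SLC6A3 (ENSG00000142319; GRCh38 chromosome 5, 1392790 to 1445430, minus strand), the dopamine carrier, stood at 2.33, 2.52 and 3.05 FPKM with scramble and at 1.13, 1.34 and 1.35 FPKM with siDYRK2. It had the lowest log2 fold change of the members (−0.82, SE 0.10, limma adjusted p = 9.4e-04), a 2.07-fold lower mean. SLC6A9, the glycine carrier GlyT1, fell from 13.9 ± 0.330 to 12.5 ± 0.184 FPKM (SD, n = 3; limma log2 fold change −0.16, adjusted p = 0.011), a call lost without scramble replicate 2 (−0.14, adjusted p = 0.0522). SLC6A6, the taurine carrier, stood at 20.7, 20.1 and 19.7 FPKM with scramble and at 19.6, 19.0 and 19.1 FPKM with siDYRK2 (log2 fold change −0.07, limma adjusted p = 0.15). The creatine carrier SLC6A8 had means of 2.41 and 2.38 FPKM (log2 fold change −0.01), and SLC6A17, a neutral amino acid carrier of synaptic vesicles, 0.967 and 1.16 FPKM (log2 fold change 0.18, limma adjusted p = 0.12).

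The amino acid response, which ATF4 drives, held genes that moved in both directions. The response element word TGATGNAA lay near a start of 5 of the 20 tested transporter genes that could be searched. SLC3A2 and SLC7A1 of these rose, SLC38A1 fell, and SLC1A4 and SLC1A5 were not called. Of the 16 genes in the list, all tested, 8 rose and 5 fell (median log2 fold change 0.17), against 20.4% and 17.9% of all tested genes. ASNS, the asparagine synthetase, stood at 71.0, 69.1 and 67.3 FPKM with scramble and at 138, 148 and 151 FPKM with siDYRK2. The siDYRK2 mean was 2.10 times the scramble mean, without overlap (log2 fold change 1.07, SE 0.041, limma adjusted p = 5.6e-06). PSAT1, a serine synthesis enzyme, rose with a log2 fold change of 0.34 and CHAC1, a glutathione-degrading enzyme, with 0.72. CEBPB, a transcription factor partner of ATF4, fell with a log2 fold change of −0.63, and TRIB3, a pseudokinase that restrains ATF4, with −0.37. ATF4 itself, singled out after its values were seen, had means of 152 and 146 FPKM (log2 fold change −0.06, limma adjusted p = 0.39), and was called lower without siDYRK2 replicate 3 (−0.11, adjusted p = 0.0424). Without scramble replicate 2 the counts were 5 higher and 3 lower, and without siDYRK2 replicate 2, 3 were lower.

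Among partners and regulators of the carriers, 4 of 8 tested genes rose and 3 fell (median log2 fold change 0.11), beside 20.4% and 17.9% of all tested genes. NEDD4L, a ubiquitin ligase that removes many transport proteins from the cell surface, stood at 4.18, 4.44 and 4.38 FPKM with scramble and at 1.97, 2.08 and 1.98 FPKM with siDYRK2 (log2 fold change −0.95, limma adjusted p = 2.9e-05). Its relative NEDD4 fell too (−0.33). LAPTM4B, a lysosomal protein that binds the LAT1-4F2hc pair, rose with a log2 fold change of 0.35, SGK1, a kinase that acts on NEDD4L, with 0.53, and TXNIP, an arrestin-like inhibitor of glucose uptake, with 1.04. The calls of these 5 genes held in all 14 alternatives.

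Genes of amino acid sensing by mTORC1, the kinase complex that responds to leucine and arginine, showed 6 of 37 tested members higher and 8 lower, shares of 16.2% and 21.6% that lie near the 20.4% and 17.9% of all tested genes. The median log2 fold change was −0.01. MTOR and RPTOR, the kinase and its scaffold, rose with log2 fold changes of 0.44 and 0.33. CASTOR1, a cytosolic arginine sensor, fell from 3.28 to 1.69 FPKM (−0.79), RRAGC, a Rag GTPase, with −0.43 and RHEB, the GTPase that activates mTORC1, with −0.15. The 8 lower genes became 4 without scramble replicate 1, scramble replicate 2 or siDYRK2 replicate 1, and 5 without scramble replicate 3 or with the replicate block.

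In the list of cystine, glutamate and glutathione metabolism, 9 of 23 genes rose (39.1%) and 6 fell (26.1%), where 20.4% and 17.9% of all tested genes did (median of the log2 fold changes 0.10). Besides ASNS, which is in both lists, PYCR1 of proline synthesis (0.39), the transaminase GOT2 (0.26) and the lipid peroxide reductase GPX4 (0.29) rose, and the arginine synthesis enzyme ASS1 fell (−0.84). The list of other amino acid, peptide and lysosomal carriers held 3 lower and 0 higher genes among 7 tested at an adjusted p under 0.05, against 17.9% and 20.4% of all tested genes (limma; no further member was higher at an unadjusted p under that level). The list's median log2 fold change was 0.05, and the 4 tested genes not called had positive values. SLC66A1 exports cationic amino acids from lysosomes, CTNS is the lysosomal cystine carrier, and MFSD12 imports cysteine into lysosomes and melanosomes. These were the 3 lower genes (−0.29, −0.20 and −0.11). That count became 1 without scramble replicate 1, scramble replicate 3, siDYRK2 replicate 1 or siDYRK2 replicate 3, and 0 without siDYRK2 replicate 2. SLC66A1 lost its call without siDYRK2 replicate 1 or 2 (−0.26 in both), and CTNS without scramble replicate 1 (−0.20), scramble replicate 3 (−0.18), siDYRK2 replicate 2 (−0.16) or siDYRK2 replicate 3 (−0.19). MFSD12 lost its call in 9 of the 14 alternatives: without scramble replicate 1 (−0.12), scramble replicate 3 (−0.087), siDYRK2 replicate 1 (−0.13), siDYRK2 replicate 2 (−0.11) or siDYRK2 replicate 3 (−0.11), with the replicate block (adjusted p = 0.0722), without a trend (0.0908), after rescaling without mitochondrial transcripts (0.0532) and with no filter on low values (0.072).

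**Figure D4:**
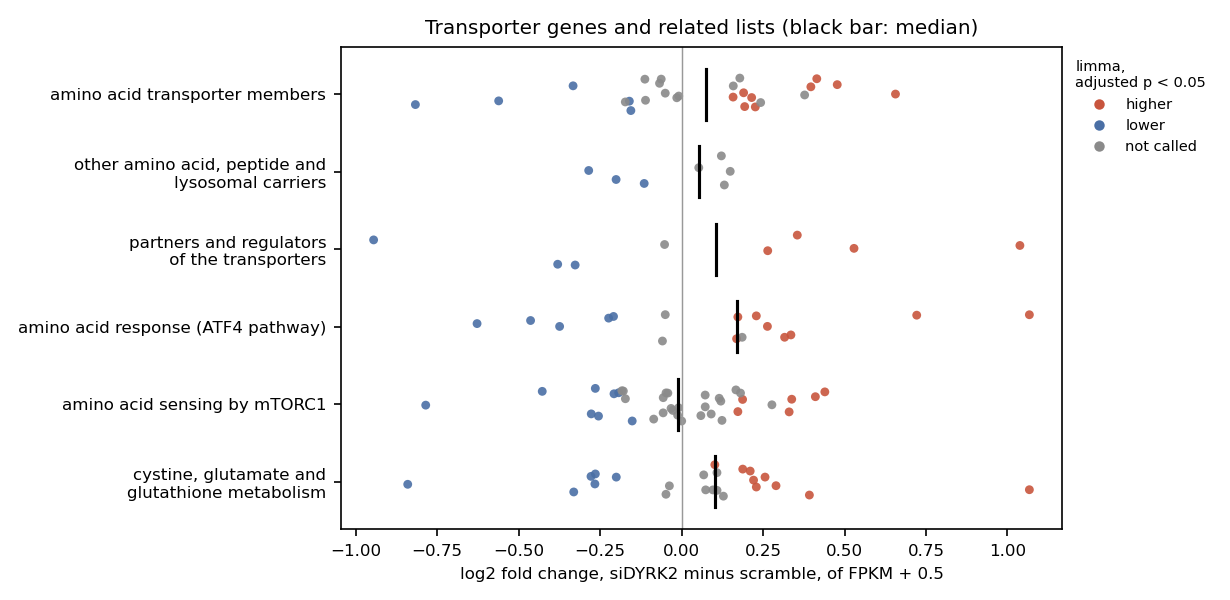
Log2 fold change (siDYRK2 minus scramble, of FPKM + 0.5) of each tested gene in the transporter families and in the 5 related lists, with points spread vertically for legibility and a black bar at each median; red and blue mark limma calls. Every list holds genes on both sides of 0, and the medians lie between −0.01 and 0.17.

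Transcripts that carry ATCTATA in the 3′ untranslated region, a word that earlier results of these data tied to lower values, include 3 members. Of 1174 tested genes with the word 31.5% were called lower, against 17.2% of 10452 genes without it. The word was taken from these same data, so this difference was known beforehand and is no separate support. It was held by 10.1% of all genes searched. Of the genes called lower, 370 held it and 1793 did not. SLC38A1 and SLC7A11, which fell, and SLC1A4, which was not called, hold 1 copy each, whereas the other 22 members searched, SLC6A3, SLC6A9 and SLC36A4 among them, hold none. The stretches are shown because they fall in 2 of the 5 members that fell, with the word in capitals.
SLC38A1: acttgttttatATCTATAaatctaggtta
SLC7A11: caattcctagaATCTATAgtagtatcagg
SLC1A4: cacatatgtatATCTATAcacacatgtgt
They lie in the last, untranslated part of the transcripts (GENCODE v29, GRCh38) at chr12:46187879-46187907 (minus strand), chr4:138165680-138165708 (minus strand) and chr2:65023296-65023324 (plus strand). Their untranslated regions are 5907, 7859 and 2719 bases long, and long regions hold any word more often. A part of this word in the falls of SLC38A1 and SLC7A11 was not tested.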

How the data were processed

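Total RNA of 6 HK-2 libraries was extracted with Trizol and sequenced by Illumina machines, as the labels' protocols state. The authors deposited FPKM per gene, rounded to 2 decimals, per the file headers. HISAT2, StringTie and the GRCh38 build are named, with no order, in the submitters' processing notes. For annotation, strand use and filters: not given in the sources used here. All 6 value columns were matched to the labels by library name, and 0 were left over. FPKM carries no depth. In 7952 single-transcript genes, low values were whole multiples of the best step (tolerance 0.1) in 27.2% to 29.4% of cases. Evenly spread values would give 20% at a fixed step, and more at a step picked as the best of many. Reads were not recovered, and depth is unknown.

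The 15121 genes whose mean reached 0.5 FPKM entered limma 3.58.1 (R 4.3.3) as log2(FPKM + 0.5), fitted with a trend and without a replicate block, with Benjamini-Hochberg adjustment at 0.05. Folds on this scale understate changes of low genes. Permutation tests over libraries were exact and two-sided. Values are mean ± SD; folds are ratios of means.

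The transporter genes and the lists were chosen with earlier results of these data known. All tested transporters are named, with every library's value for those past the threshold that moved by 0.5 or more on the log2 scale, the 8 with the highest mean, SLC3A2, SLC7A5 and SLC7A11. Of each list, up to 5 genes with the smallest adjusted p are named. One proximal tubule marker, and with it the summed level of that list, is not reported here. Markers of endothelial cells and fibroblasts had no gene at a mean of 0.5 FPKM, and all 5 epithelial markers did. Of 3 immune markers CD68 did, while PTPRC and CD3E had no values. Loci and untranslated regions are from GENCODE v29, with 1 transcript per gene (principal isoform, longest 3′ region, at least 50 bases). Alternatives were other pseudocounts, filters and scalings, no trend, a replicate block and leaving out each library.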

Additional observations from a re-analysis of the deposited data

How the results depend on the processing

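DYRK2 kept its call in all 14 alternatives, and the counts over all tested genes stayed within 1.5 times. Without a filter on low values 4 members were higher and 3 lower, 0 other carriers were lower, 3 genes of the amino acid response were lower and 4 of mTORC1 sensing were lower. With the replicate block 3 members and 5 mTORC1 sensing genes were lower. No shared deviation was seen between libraries of the same replicate number (correlations of deviations −0.077, 0.024 and −0.088, 2 of 6 libraries closest to their own number). The labels do not say how replicates were made, so this check cannot exclude a pairing. Leaving out 1 library gave 3 to 7 higher and 2 to 5 lower members, 0 to 3 lower other carriers, 5 to 8 higher and 3 to 5 lower amino acid response genes, and 4 to 7 lower mTORC1 sensing genes. Of 14 called members 9 lost the call in at least 1 alternative and 0 changed direction. Of 12 not called, 6 gained a call in an alternative. SLC38A6 ranged from −0.039 to 0.015 and SLC6A8 from −0.046 to 0.011 when 1 library was left out. Some alternatives had fewer libraries or more genes tested. The cause of these losses was not tested. Depth is unknown, so no counting error is given, and levels near 0.5 FPKM are the least certain.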
